A study of Mus musculus with 20 samples.

Results

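The 10 genes described here, Per1, Per2, Per3, Ciart, Dbp, Tef, Nr1d1, Nr1d2, Arntl and Npas2, belong to the circadian clock or are driven directly by it, and they are 10 of the 19463 genes measured. They were selected on their mean log2 differences between Katnal2-KO and wild-type (WT) mice, which as a group pointed in opposite directions at the 2 ages of the study, so these genotype differences are given below as values without a test. RNA was sequenced from whole brains of male mice at postnatal day (P) 21, or 3 weeks, and at P70, or 10 weeks, with 5 Katnal2-KO and 5 WT mice at each age and 20 mice in all. Katnal2 encodes a relative of katanin, an enzyme that severs microtubules.

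The KO mice were homozygous for a deletion of exon 3 that shifts the reading frame. The allele came from a EUCOMM targeted embryonic cell line, its cassette was removed with Protamine-Flp mice, and the exon was then removed with the cell-permeable HTNC Cre protein at the two-cell stage, so that the deletion is present in the whole animal. All mice were on a C57BL/6J background, and KO and WT littermates were housed together under a 12 h light and 12 h dark cycle. The hour at which each brain was taken is not given in the sources used here. In whole-brain RNA a change in the share of a cell type and a change in the RNA of each cell cannot be told apart.

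The mammalian clock is a loop of transcription and repression that runs in nearly every cell. ARNTL (also called BMAL1), paired with CLOCK or NPAS2, binds E-box sequences and switches on the Per and Cry genes, whose proteins later block that same pair. The pair also drives Nr1d1 and Nr1d2, whose products (REV-ERB alpha and beta) repress Arntl and Npas2 through ROR elements, and Dbp and Tef, whose products bind D-boxes. Because of this wiring the outputs Dbp, Nr1d1 and Ciart peak together, and Arntl is at its lowest near that time and peaks in the opposite part of the day.

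Promoter windows of 300 bases (250 before and 50 from the transcription start, RefSeq on GRCm38.p6) are shown as background to the loop. Windows were matched for 9 of the 10 genes (all but Per2), 12 windows in all. They were searched on both strands for the E-box CACGTG, the D-boxes TTATGTAA and TTACGTAA, the ROR element cores TAGGTCA and TGGGTCA, and the cAMP response element TGACGTCA. The CACGTG letters begin at positions -116, -58 and -44 from the start of Ciart, at -166 in the first window of Per1, and at -127 and -138 in the 2 windows of Tef. TTATGTAA begins at -205 and -158 in Per3, and TAGGTCA begins at 31 bases after the start in the second window of Arntl. Among 32851 promoters of the same length, 7.15% hold the E-box, 1.06% a D-box, 6.45% a ROR core and 1.79% the cAMP response element. None of these letters were found in the windows of Dbp, Nr1d1, Nr1d2 and Npas2. Sequence outside the windows was not searched, so a gene without a match may hold such letters elsewhere. Each window below reads 5′ to 3′ along the gene, with the matched letters in capitals, and the window of Dbp, the reference gene used further on, is shown as one without a match.
Ciart promoter, chr3:95882179-95882478, minus strand: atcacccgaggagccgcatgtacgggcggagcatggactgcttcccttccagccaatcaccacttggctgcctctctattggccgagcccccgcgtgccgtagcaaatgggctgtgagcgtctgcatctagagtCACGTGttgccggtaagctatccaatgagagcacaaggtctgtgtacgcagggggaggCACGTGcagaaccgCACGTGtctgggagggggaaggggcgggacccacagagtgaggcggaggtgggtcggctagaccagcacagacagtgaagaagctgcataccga
Per1 promoter, chr11:69098699-69098998, plus strand: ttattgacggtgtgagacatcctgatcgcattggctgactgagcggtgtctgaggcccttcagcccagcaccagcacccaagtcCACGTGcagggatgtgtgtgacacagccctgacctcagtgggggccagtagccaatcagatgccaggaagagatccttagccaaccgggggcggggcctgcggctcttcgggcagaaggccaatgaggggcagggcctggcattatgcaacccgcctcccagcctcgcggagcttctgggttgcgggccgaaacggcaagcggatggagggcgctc
Tef promoter, chr15:81802423-81802722, plus strand: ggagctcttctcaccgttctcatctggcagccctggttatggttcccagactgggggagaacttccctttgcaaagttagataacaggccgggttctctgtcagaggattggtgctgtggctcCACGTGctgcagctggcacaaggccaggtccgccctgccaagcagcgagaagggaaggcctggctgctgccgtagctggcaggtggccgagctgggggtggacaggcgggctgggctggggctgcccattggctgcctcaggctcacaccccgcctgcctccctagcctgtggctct
Per3 promoter, chr4:151044616-151044915, minus strand: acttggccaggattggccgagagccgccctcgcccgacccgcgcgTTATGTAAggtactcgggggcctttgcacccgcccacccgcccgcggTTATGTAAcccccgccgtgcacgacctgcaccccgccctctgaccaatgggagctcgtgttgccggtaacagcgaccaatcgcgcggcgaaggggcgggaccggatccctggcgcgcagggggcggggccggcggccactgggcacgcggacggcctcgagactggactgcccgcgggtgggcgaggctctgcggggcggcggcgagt
Arntl promoter, chr7:113207261-113207560, plus strand: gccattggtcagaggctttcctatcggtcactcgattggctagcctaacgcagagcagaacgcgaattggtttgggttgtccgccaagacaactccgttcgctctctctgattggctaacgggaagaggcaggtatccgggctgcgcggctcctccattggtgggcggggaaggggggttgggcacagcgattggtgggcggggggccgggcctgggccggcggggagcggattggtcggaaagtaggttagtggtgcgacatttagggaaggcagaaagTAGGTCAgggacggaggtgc
Dbp promoter, chr7:45704997-45705296, plus strand: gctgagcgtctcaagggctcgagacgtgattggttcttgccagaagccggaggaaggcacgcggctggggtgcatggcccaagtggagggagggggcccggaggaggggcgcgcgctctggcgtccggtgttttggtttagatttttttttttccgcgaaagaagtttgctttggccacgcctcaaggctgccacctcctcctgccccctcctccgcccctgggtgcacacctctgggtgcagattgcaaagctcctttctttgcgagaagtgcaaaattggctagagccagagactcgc

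On GRCm38 the members lie at chr11:69095217-69109960 (Per1, plus strand), chr1:91415982-91459324 (Per2, minus), chr4:151003652-151044665 (Per3, minus), chr3:95878503-95882251 (Ciart, minus), chr7:45705088-45710203 (Dbp, plus), chr15:81802421-81826863 (Tef, plus), chr11:98767932-98775333 (Nr1d1, minus), chr14:18204054-18239127 (Nr1d2, minus), chr7:113207465-113314126 (Arntl, plus) and chr1:39193731-39363236 (Npas2, plus). Overlaps with other genes are given between whole gene spans, introns included, and the share that lies in exons was not counted. The library kit does not mark strand, so reads from exons shared by genes on opposite strands cannot be told apart by strand. Nr1d1 overlaps Thra on the opposite strand over 1075 bases, and Dbp overlaps Sphk2 over 737 bases. All 3749 bases of Ciart lie within the span of the antisense gene C920021L13Rik. Per3 lies wholly within the span of Camta1 on the same strand (41014 bases), Arntl overlaps Gm45355 over 2394 bases, Tef overlaps Gm17597 over 193 bases, and Npas2 spans the pseudogenes Gm20428 and Gm3617.

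Values are normalised read counts (reads per gene divided by a size factor for each mouse), and sequencing depth was estimated, roughly, at 23000000 to 28000000 reads in P70 KO mice, 24000000 to 27000000 in P70 WT mice and 26000000 to 36000000 in P21 mice. Markers of neurons, astrocytes, oligodendrocytes and microglia were above 0 in every mouse, and the summed pituitary hormone genes ranged from 42 to 7517, with 3 of the 4 genes at 0 in at least 1 mouse. Summed haemoglobin-related blood markers ranged from 12038 to 30949 in P21 KO and from 24464 to 61276 in P21 WT mice. Katnal2 itself averaged 89.0 ± 8.7 in P21 KO, 107 ± 7.4 in P21 WT, 105 ± 11.8 in P70 KO and 122 ± 16.4 in P70 WT mice (SD, n = 5), and a whole-gene value that pools all exons does not check the loss of exon 3.

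The P70 mice of replicate 5, 1 KO and 1 WT, stood apart from the other 18. The root mean square of their log2 deviations from the group mean over all tested genes was 0.532 and 0.438, against 0.235 to 0.339 in the others. In them, the median deviation of the 25% of genes with the longest transcripts less that of the 25% with the shortest was -0.502 and -0.432 (log2), while in the other mice this difference ran from -0.241 to 0.202. Results that rest on these mice are given with and without them.

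Dbp, a PAR bZIP transcription factor and one of the most strongly cycling transcripts known, was spread more widely at P70 than at P21. Its within-group SD was 0.234 (log2) at P21 and 0.351 at P70. That ratio of 1.5 was near the median ratio over all tested genes, 1.47. At P21 the KO mice had 1721, 1808, 1663, 1426 and 1919 counts and the WT mice 1882, 1284, 2137, 1485 and 1769. At P70 the KO mice had 1422, 1803, 1250, 1260 and 2201 and the WT mice 1627, 1556, 2391, 1313 and 2098. The highest P70 mice were WT replicate 3 and both mice of replicate 5, and all 4 groups overlapped.

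Ciart, a repressor of the ARNTL pair (also called CHRONO), was narrowly spread at P21 and widely at P70. At P21 the KO mice had 437, 421, 384, 384 and 404 counts, and the WT mice had 402, 349, 409, 385 and 379. At P70 the KO mice had 354, 379, 233, 271 and 491, and the WT mice had 370, 353, 540, 288 and 558. The same 3 P70 mice that were high in Dbp were the highest in Ciart.

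Nr1d1, which encodes the repressor REV-ERB alpha, was also tight at P21, with 2358, 2559, 2302, 2269 and 2549 counts in KO mice and 2482, 2280, 2413, 2109 and 2481 in WT mice. At P70 the KO values were 2193, 2245, 2124, 2191 and 3230 and the WT values 2219, 2459, 3118, 2019 and 3170. Again WT replicate 3 and both replicate 5 mice were the highest, from 3118 to 3230, and every other mouse was at or below 2559.

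Nr1d2, which encodes the related repressor REV-ERB beta, behaved differently in the replicate 5 mice. Its P21 values were 3381, 3199, 2964, 3133 and 3457 in KO mice and 3536, 3112, 3250, 3117 and 3324 in WT mice. At P70 the KO values were 3839, 3996, 3402, 3307 and 2210 and the WT values 3747, 3828, 4121, 3591 and 2470. The 2 replicate 5 mice were the lowest of all 20, below every P21 mouse, and the other 8 P70 mice lay between 3307 and 4121.

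Arntl, the central activator, moved the other way from Dbp. P21 KO mice had 709, 722, 771, 804 and 659 counts, with 722, 823, 706, 753 and 687 in the P21 WT group. P70 KO mice had 870, 705, 952, 1032 and 731, with 924, 837, 690, 865 and 789 in the P70 WT group. The lowest P70 WT mouse was replicate 3, the mouse with the most Dbp, and the highest P70 KO mouse was replicate 4, which with replicate 3 had the least Dbp of its group.

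**Figure D1:**
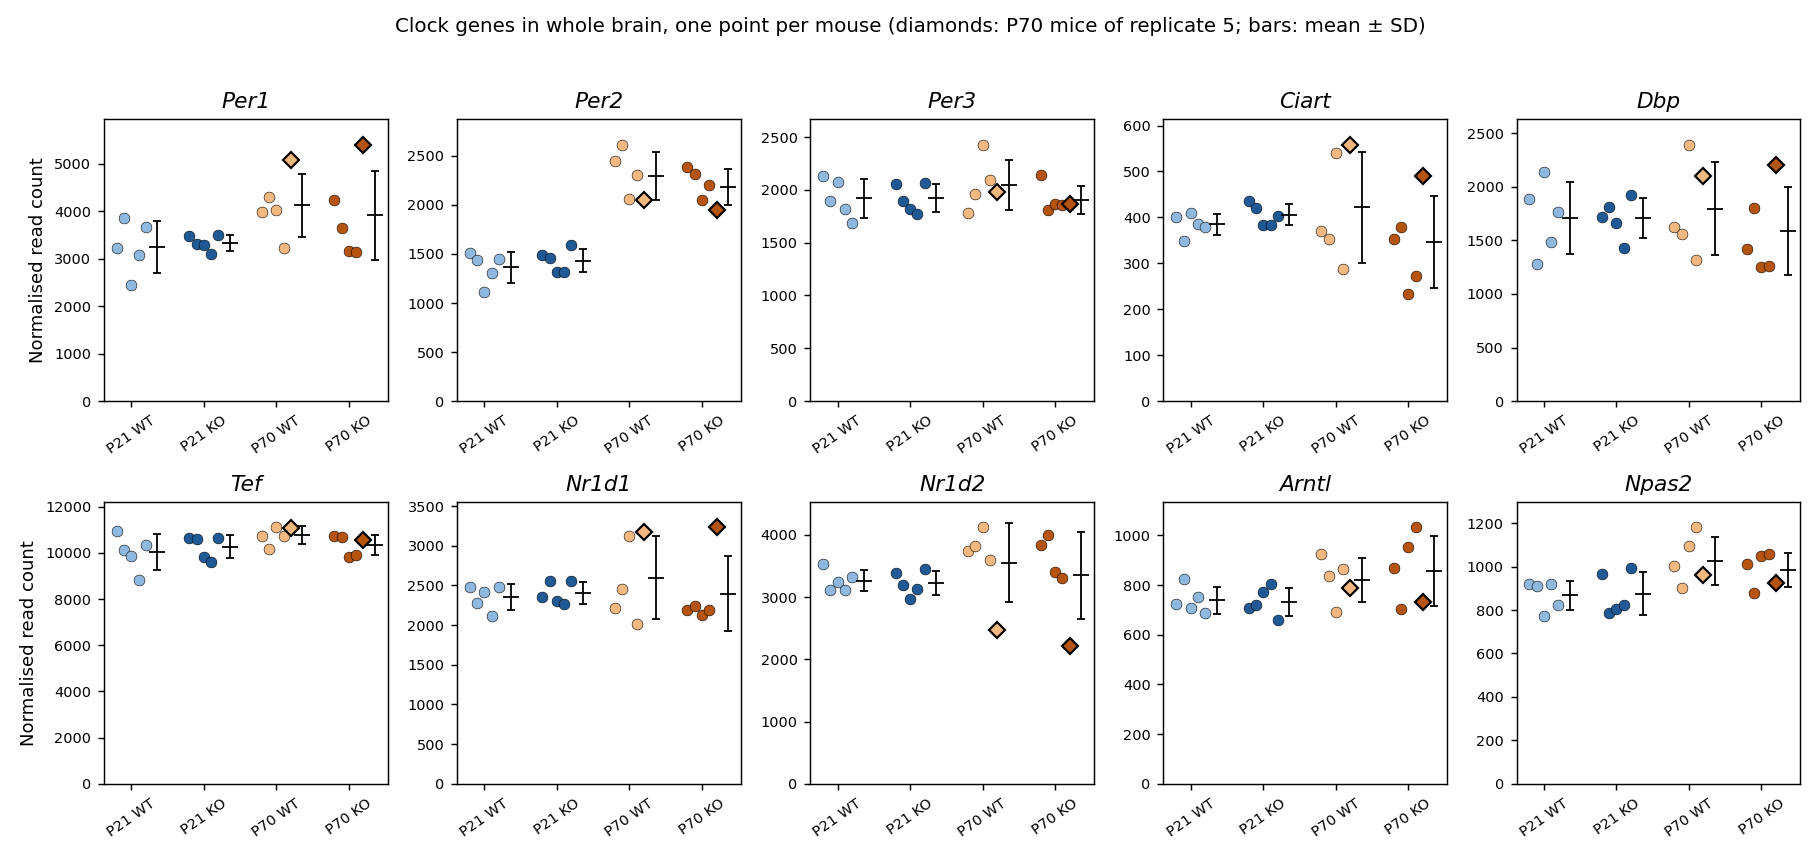
Normalised read count of each of the 10 clock genes (vertical axis, from 0) in the 4 groups of 5 mice, with the mean ± SD beside each group. Per2 separates the ages without overlap, from 1108 to 1590 at P21 and from 1953 to 2612 at P70, while the diamonds (P70 mice of replicate 5) are high in Per1, Ciart, Dbp and Nr1d1 and lowest in Nr1d2.

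The age comparison asked which clock genes differed between juvenile and adult brain. Because the hour of collection is not given, an effect of age on a cycling gene cannot be told apart from one of hour. It averages over both genotypes and is independent of the differences that chose the genes, so it was tested by limma across 17637 genes with Benjamini-Hochberg adjustment. Of all genes tested, 12.6% were called higher and 12.8% lower at P70. Of the 10 members, 3 rose, none fell and 7 did not pass, with a median log2 difference of 0.06 against -0.0072 over all genes.

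Per2, a core repressor of the loop, rose most. KO mice had 1485, 1457, 1316, 1314 and 1590 counts at P21 and 2385, 2319, 2048, 2207 and 1953 at P70. WT mice had 1512, 1443, 1108, 1301 and 1449 counts at P21 and 2443, 2612, 2063, 2305 and 2050 at P70. The mean went from 1398 ± 138.6 to 2239 ± 210.5 (SD, n = 10 mice of each age), with no overlap, a log2 difference of 0.68 ± 0.06 (SE, limma adjusted p = 1.11e-07). The call was made in each of 30 alternative settings.

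Npas2, the partner of ARNTL used mainly in forebrain, rose from 872 ± 79.4 to 1006 ± 93.1 counts, a log2 difference of 0.21 ± 0.06 (SE, limma adjusted p = 0.0179), and passed in all 20 fits that left out 1 mouse. Per1, the immediate light- and stress-responsive repressor, rose from 3289 ± 384.9 to 4018 ± 776.4, a log2 difference of 0.27 ± 0.10 (SE, limma adjusted p = 0.0458). The Per1 call was fragile: it passed in 5 of the 20 fits that left out 1 mouse, and without both P70 mice of replicate 5, which had 5395 and 5085 counts, the log2 difference was 0.17 (limma adjusted p = 0.0924).

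Arntl differed by 0.18 ± 0.07 (log2, SE, limma adjusted p = 0.0645) and Nr1d2 by 0.06 ± 0.09 (adjusted p = 0.669), short of the threshold. Without the replicate 5 mice at P70 both passed, Arntl at 0.22 (limma adjusted p = 0.0201) and Nr1d2 at 0.20 (adjusted p = 0.00134), so that 4 of 10 members were then called higher, against 18.9% of all genes higher and 18.3% lower in the same fit. With a correction for transcript length Arntl also passed (limma adjusted p = 0.0391). The remaining log2 differences were 0.04 for Per3, 0.06 for Tef, 0.05 for Nr1d1, -0.04 for Dbp and -0.10 for Ciart, each less than 2 times its SE.

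Other genes of the clock were also higher at P70. Of 18 further clock genes, 9 rose, none fell and 9 did not pass, with a median log2 difference of 0.14. Among those with the smallest p were Bhlhe40 (a repressor that competes at E-boxes, 0.72 ± 0.06), Cry1 (0.37 ± 0.06) and Cry2 (0.21 ± 0.04), the partners of the PER proteins, Rorb (a receptor that activates through ROR elements, 0.39 ± 0.06) and the kinase Csnk1d (0.14 ± 0.03, log2 ± SE). Clock, the usual partner of ARNTL, differed by 0.02 ± 0.13. This value rested on the replicate 5 mice, which had 1524 and 1717 counts while the other P70 mice had 2840 to 3249, and without them it was 0.20 ± 0.06 (limma adjusted p = 0.0121). Without the replicate 5 mice at P70, 15 of the 18 passed, and 6575 genes passed over the whole table against 4478 with them.

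Among 10 genes known to follow the clock, 3 rose with age (Noct 0.29, Herpud1 0.32 and Wee1 0.21) and Tspan4 fell by 0.31 on the log2 scale. Per1 also belongs with genes that answer neuronal activity and stress hormone. Of 12 immediate early genes 10 rose at P70, with a median log2 difference of 0.91 and Fosb at 2.30 ± 0.18, and of 12 glucocorticoid-induced genes 1 rose (Pdk4, 0.38) and 3 fell (Mt2, -0.67, Sult1a1, -0.62, and Fkbp5, -0.53). Of 8 temperature-responsive genes 4 rose, led by the heat shock gene Hspa1b at 1.53 ± 0.22. The part that any of these had in the Per1 value was not tested.

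The second question was whether the members varied together among mice of 1 group. Group means, which chose the genes, were fitted out, and the slope of each gene on Dbp was tested by limma over 20 mice across 17636 genes. Ciart rose 0.87 ± 0.13 log2 units per log2 unit of Dbp (SE, limma adjusted p = 0.0174) and Nr1d1 rose 0.57 ± 0.10 (adjusted p = 0.0413), while Arntl fell, with a slope of -0.46 ± 0.09 (adjusted p = 0.0413). The other 6 did not pass, with slopes of 0.29 for Per1, 0.14 for Per3, 0.13 for Tef, -0.16 for Npas2, -0.17 for Per2 and -0.18 for Nr1d2. Over all genes 0.284% had a called positive slope and 0.318% a called negative one, whereas 33.2% had an unadjusted p under 0.05.

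The within-group correlation with Dbp put these genes at the ends of the table. Ciart had the highest Pearson r of all 17636 genes (0.863, Spearman's rho 0.856), Nr1d1 the eighth highest (0.834, rho 0.797) and Arntl the fifth lowest (-0.849, rho -0.86). Shuffling Dbp among mice of 1 group 100000 times gave two-sided permutation p-values for Pearson's r of 1e-05 for Ciart (the smallest they can give), 8e-05 for Nr1d1 and 3e-05 for Arntl, and for rho of 3e-05, 7e-05 and 6e-05. These p-values are not adjusted, and 9 members were compared in this way. The shuffling took no account of the replicate number. Leaving out the 2 mice farthest in Dbp (P70 KO replicate 5 and P70 WT replicate 3) gave r of 0.789, 0.734 and -0.786. At P21 alone r was 0.759 for Ciart, 0.712 for Nr1d1 and -0.836 for Arntl, and at P70 alone 0.956, 0.898 and -0.86 (10 mice each).

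Tef, the close relative of Dbp, had a weaker correlation with it (r = 0.505, rho 0.498, permutation p = 0.0281 and 0.0261). That r ranked 2321 from the highest among 17636 genes, so many genes outside the clock lay above it. The slope of Tef did not pass (limma adjusted p = 0.18). For the Per genes r was 0.363 for Per1, -0.342 for Per2 and 0.331 for Per3, with permutation p-values of 0.205, 0.184 and 0.214 (rho 0.308, -0.247 and 0.217). Per1 had r = -0.488 at P21 and 0.738 at P70, and 0.004 without the replicate 5 mice. Per2 had -0.097 and -0.542, and Per3 0.533 and 0.215. Npas2 had r = -0.337 (permutation p = 0.172).

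The slopes were also fitted at each age alone. At P21 alone (10 mice) they were 0.28 for Ciart, 0.28 for Nr1d1 and -0.38 for Arntl (limma adjusted p = 0.502, 0.459 and 0.412), and at P70 alone 1.13, 0.70 and -0.50 (adjusted p = 0.189, 0.225 and 0.225). The sign was the same at both ages, no gene of the table was called at either (1848 and 3825 at an unadjusted p under 0.05), and the difference between the ages was not tested.

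The calls also depended on single mice. Without both P70 mice of replicate 5 no gene of the table was called by limma (1347 genes at an unadjusted p under 0.05), and the slopes of Ciart, Nr1d1 and Arntl were 0.73, 0.42 and -0.49 (limma adjusted p = 0.146, 0.227 and 0.146). Correlations in those 18 mice were 0.818, 0.783 and -0.833. With the replicate number added as a block to the fit of all mice, no member passed. The limma adjusted p was then 0.252 for Ciart, 0.796 for Nr1d1 and 0.796 for Arntl. Leaving out 1 mouse at a time, Ciart passed in 18 of 20 fits, Nr1d1 in 7 and Arntl in 5. No member passed without P70 KO replicate 4 or replicate 5, and 1 passed on leaving out any of 11 others (P21 KO replicates 1, 2 and 4, P21 WT replicates 4 and 5, P70 KO replicates 1 and 3, P70 WT replicates 1, 2, 4 and 5). Across these fits the slope of Ciart stayed between 0.79 and 0.95, that of Nr1d1 between 0.48 and 0.64 and that of Arntl between -0.51 and -0.42.

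**Figure D2:**
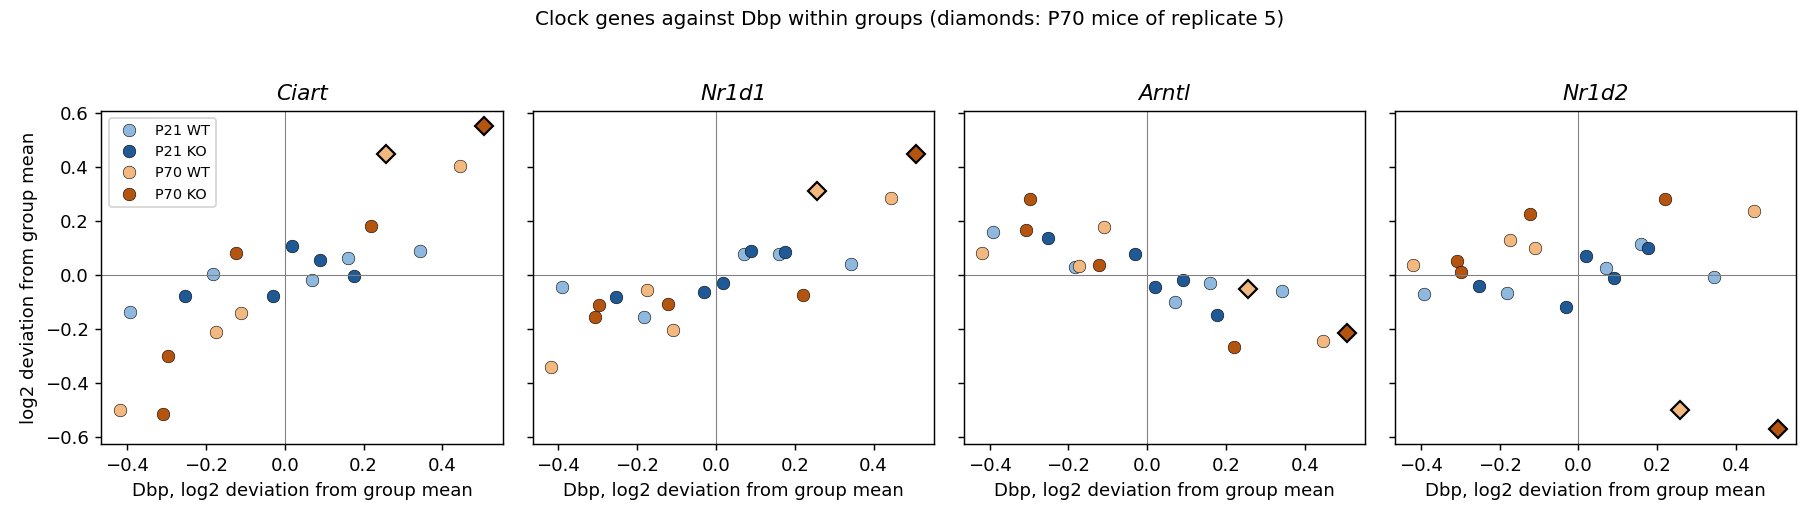
Log2 deviation of Ciart, Nr1d1, Arntl and Nr1d2 from the mean of their group (vertical axis) against that of Dbp (horizontal axis), 1 point per mouse in each panel. Ciart and Nr1d1 rise with Dbp and Arntl falls (r = 0.863, 0.834 and -0.849), and in the panel of Nr1d2 the 2 replicate 5 mice (diamonds) lie far below the other 18.

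Nr1d2 depended on the replicate 5 mice for its sign. Over 20 mice its r with Dbp was -0.234 (rho 0.071), and over the 18 others it was 0.736. With Arntl the r was 0.014 over 20 mice and -0.831 over 18, and with its relative Nr1d1 it was -0.532 and 0.61. Per1 and Per2 had r = 0.185 over all mice and 0.703 without those 2, a change of size only. By contrast the pairs Ciart with Nr1d1 (0.851 and 0.718) and Ciart with Arntl (-0.745 and -0.748) kept their sign and much of their size.

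Transcript length moved with these slopes. The 25% of genes with the shortest transcripts (median 1438 bases) had a median slope on Dbp of 0.213, and the 25% with the longest (median 6092 bases) had -0.216. The longest annotated transcripts of Dbp, Ciart and Nr1d1 have 1837, 1939 and 2721 bases, those of Arntl and Nr1d2 3995 and 4663, and those of Per1, Per2 and Per3 4671, 5833 and 5999. When a trend over length was subtracted from each mouse, the slopes of Ciart, Nr1d1 and Arntl were 0.84, 0.55 and -0.52, with limma adjusted p = 0.161, 0.211 and 0.161, and that of Nr1d2 was 0.06.

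Among the genes outside every list with the most similar pattern were Marveld1 (r = 0.855), Shmt1 (0.855), Gm33594 (0.847) and Art3 (0.844), ranked by Pearson's r with Dbp within groups over 20 mice. The most opposite were Il17rd (-0.89), Trim9 (-0.874), Tra2a (-0.873), Etv5 (-0.864) and Nol4l (-0.847). Of the 10 genes known to follow the clock, Fmo2 (slope 1.71 ± 0.32) and Tspan4 (0.63 ± 0.14) passed, and Usp2, a deubiquitinase with a strong daily cycle in many tissues, had a slope of 0.32 ± 0.08 (limma adjusted p = 0.0529). None of the 18 other clock genes passed in limma, and 4 had an unadjusted p under 0.05. The 2 with the smallest p among them were Clock (-0.68 ± 0.19, adjusted p = 0.0679) and Arntl2 (-0.63 ± 0.23, adjusted p = 0.0797). Summed pituitary hormone genes had r = -0.528 with Dbp within groups, and their part in these slopes was not tested.

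**Figure D3:**
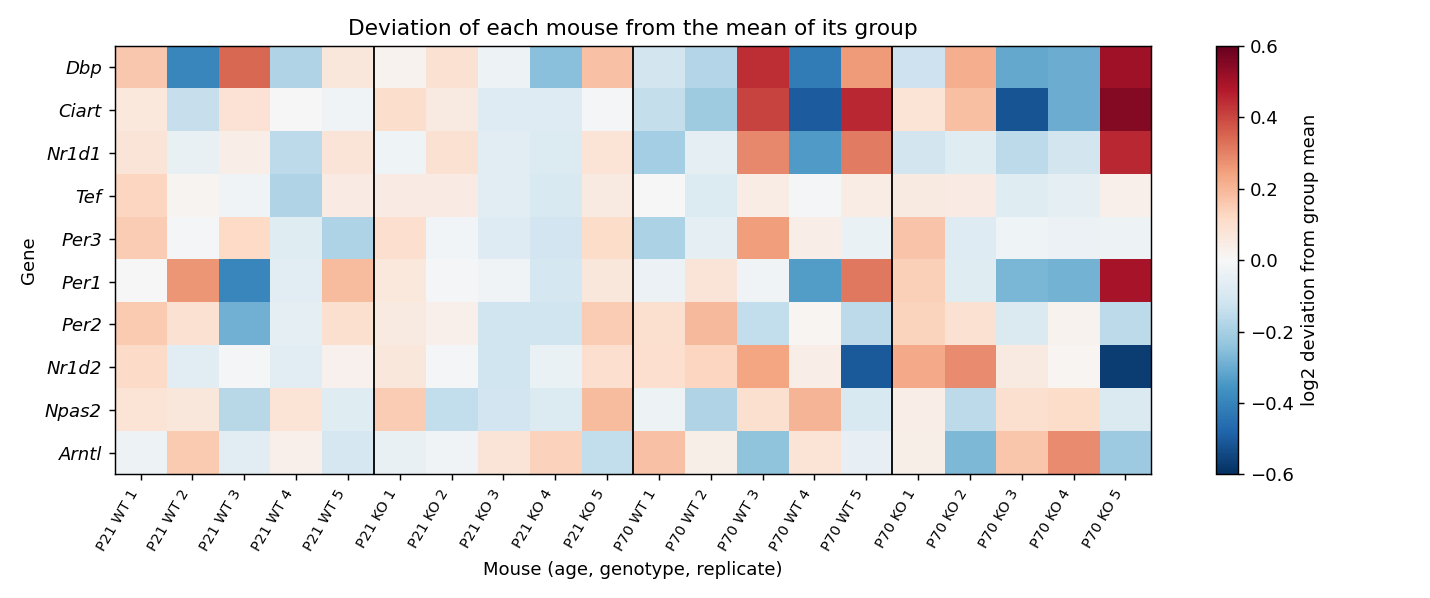
Log2 deviation of each mouse (columns, in 4 groups of 5) from the mean of its group for each clock gene (rows), from blue (lower) to red (higher). Dbp, Ciart and Nr1d1 share red and blue columns and Arntl shows the reverse, and Nr1d2 is dark blue in the P70 mice of replicate 5 (-0.571 in KO and -0.502 in WT).

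Spread between mice of 1 group also differed by gene and age. The within-group SD of Ciart was 0.085 (log2) at P21 and 0.415 at P70, that of Nr1d1 0.091 and 0.273, that of Nr1d2 0.083 and 0.315, and that of Arntl 0.106 and 0.202. Tef had 0.096 and 0.056, the smallest of the 10 at P70. Of the 10 members 7 had the larger SD at P70, as did 77.8% of all genes, so the count is near the background. Without the replicate 5 mice at P70, an exclusion chosen after seeing the data, it was 8 of 10 against 46.2% of all genes. Of those 8, Per1 and Npas2 had nearly equal SDs at the 2 ages (ratios of P70 to P21 of 1.01 and 1.06). Ciart, Nr1d1 and Arntl then still had 0.353, 0.192 and 0.211, while Nr1d2 came down to 0.110 and Per1 from 0.285 to 0.191.

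The genotype differences chose these genes and are given only as values. On the mean of log2 values, 8 of the 10 were higher in KO at P21 and 2 (Nr1d2 and Arntl) lower, and at P70, 9 were lower and 1 (Arntl) higher. The direction was opposite at the 2 ages for 9 genes and the same for Nr1d2, which is the only member outside the pattern. KO and WT mice overlapped in all 10 genes at both ages. The share of all genes that overlap was not counted, so this describes the members without setting them apart.

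The P21 differences were small. The largest were 0.08 (log2, KO minus WT) in Ciart and 0.08 in Per2, with pooled SDs between mice of 0.085 and 0.153, and none of the 10 exceeded its pooled SD. The share of all genes that exceed their pooled SD was not counted at either age, so these counts only describe the members. Dbp was higher in KO by 0.01 on the log2 scale but not on the counts themselves, which averaged 1708 ± 184.8 in KO and 1711 ± 334.6 in WT mice (SD, n = 5). Per3 differed by 0.0047 and Npas2 by 0.0069, the values closest to no difference. Over the alternative settings at P21, 8 of the 10 members changed sign in at least 1, and Per2 and Ciart did not.

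The P70 differences were larger in the cycling outputs. Ciart averaged 346 ± 100.4 in KO and 422 ± 120.3 in WT mice (SD, n = 5), a log2 difference of -0.29 with a pooled SD of 0.415. Dbp averaged 1587 ± 409.6 and 1797 ± 437.4, a difference of -0.18 with a pooled SD of 0.351, and Nr1d1 2397 ± 467.9 and 2597 ± 523.3, a difference of -0.11. Per3 differed by -0.10, Nr1d2 and Per1 by -0.09, Per2 by -0.07 and Npas2 by -0.06. Arntl was higher in KO by 0.05. Tef was the only member whose difference (-0.06) exceeded its pooled SD (0.056). That SD was among the smallest of all tested genes at P70 (percentile 1.4), and the share of all genes that exceed theirs was not counted. At P70, 2 of the 10 members (Nr1d2 and Arntl) changed sign in at least 1 setting. Leaving out 1 mouse, Ciart ran from -0.159 (without KO replicate 3) to -0.426 (without KO replicate 5), Dbp from -0.0701 (without WT replicate 3) to -0.3083 (without KO replicate 5) and Nr1d1 from -0.0336 (without WT replicate 5) to -0.2237 (without KO replicate 5). Without both replicate 5 mice, Ciart differed by -0.31, Dbp by -0.24, Nr1d1 by -0.15 and Arntl by 0.10.

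**Figure D4:**
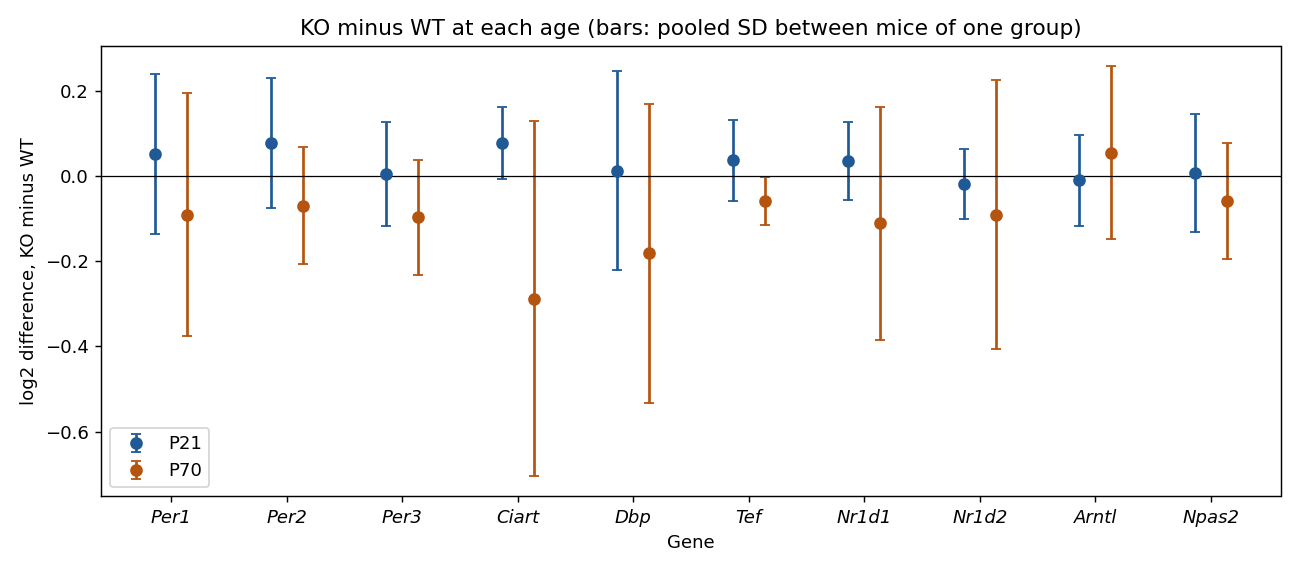
Log2 difference between KO and WT mice (vertical axis) for each clock gene at P21 and P70, with bars of 1 pooled SD between mice of the same group. All P21 points lie within 0.08 of 0, and the lowest P70 point is Ciart at -0.29. The bar of every point crosses 0 except that of Tef at P70, the shortest bar at that age.

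In the whole table limma called no gene between genotypes: 0% of 17610 genes at P21 and 0% of 17613 at P70, with 429 (2.44%) and 199 (1.13%) at an unadjusted p under 0.05. With DESeq2, a different test, the study reported small sets of genes that differed between genotypes at both ages. The interaction of age and genotype called 0% of 17637, with 296 (1.68%) at an unadjusted p under 0.05. None of the 18 other clock genes passed at either age, and none had an unadjusted p under 0.05. The 2 with the smallest p were Fbxw11 (0.08) and Bhlhe41 (0.14) at P21, and Arntl2 (-0.27) and Nfil3 (0.15) at P70 (log2, KO minus WT). Their medians were 0.0078 and -0.0301, with 10 and 7 of 18 above 0.

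Of the 10 genes that follow the clock none passed. Usp2 was the only one of them with an unadjusted p under 0.05 at P70 (log2 difference -0.24 ± 0.09, SE), and its interaction value was -0.28 ± 0.11. The glucocorticoid-induced list, which responds to a hormone with a daily rhythm of its own, had all 12 genes above 0 at P21 (median 0.11) and all 12 below 0 at P70 (median -0.41), again with none past the threshold. Immediate early genes had 1 of 12 above 0 at P21 and 11 of 12 at P70. The median over all genes was 0.0042 at P21 and -0.0047 at P70. These lists were chosen with earlier results of these data known, so their signs are given as values only.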

How the data were processed

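Poly-A RNA of whole brains was sequenced with paired reads. Reads were quantified by the authors against GRCm38 transcripts in Salmon, with its GC bias model, then summed to genes through tximport and divided by DESeq2 size factors. The deposited signal values are those normalised read counts, 1 column per mouse. The submitters' processing notes name Salmon 1.1.0, R 3.6.2 and DESeq2 1.26.0. After division by size factors the values are not whole reads, and depth is an estimate from the lowest values.

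Of 19463 genes, 19447 matched a symbol. Tests used limma 3.58.1 in R 4.3.3 (lmFit, eBayes with a trend) on log2(value + 1), which understates differences of low genes. Genes averaging 10 or more were kept, p-values were adjusted by Benjamini-Hochberg over all of them, and the threshold was 0.05. The age difference and the slope on Dbp used all 20 mice in 4 groups from the labels, the genotype difference 10 mice of each age. Length trends were lowess fits on the longest annotated transcript (GENCODE M21). The scripts were tested on simulated data in which each gene varied independently. Variation shared between genes, which bears on the slope on Dbp, was not simulated. Figures used matplotlib 3.10.9.

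The members and the gene lists were chosen with earlier results of these data known. Named genes are all members, from every other list up to 6 past the threshold or the 2 with the smallest p, and the 5 highest and 5 lowest genes by correlation with Dbp, of which 2 genes are not reported here. The gene spans of Nr1d1, Dbp and Ciart share stretches with genes on the other strand.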

Additional observations from a re-analysis of the deposited data

Results flagged for a closer look

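In each group of 5 mice the gap of the highest or lowest mouse to its neighbour was compared with the range of the group (Dixon's critical value 0.71), over 40 groups of the 10 genes. Chance flags about 1 in 20, or 2 of 40, and 2 were found. Per3 in P70 KO replicate 1 was 2141 counts, with the next at 1870 (ratio 0.807). Nr1d1 in P70 KO replicate 5 was 3230 counts, with the next at 2245 (ratio 0.89), and this mouse is 1 of the 2 that stood apart over all genes.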

How the results depend on the processing

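The age calls of Per2 held in all 30 alternatives. Counts of genes past the age threshold were 4478 with all mice, 1643 in WT mice alone and 1467 in KO mice alone (1 member in each, 5 other clock genes in KO mice), 15 other clock genes without both P70 mice of replicate 5, and on leaving out 1 mouse 3957 to 5156 genes, 2 to 3 members and 9 to 10 other clock genes. Sign changes of age differences that were never called were Ciart 0.0875 and Dbp 0.0596 in WT mice alone, Per3 -0.011 and Nr1d1 -0.024 in KO mice alone, and Nr1d1 -0.046 without both replicate 5 mice. The WT-only and KO-only values of a member differ by the interaction of age and genotype that chose it. Their split by genotype is therefore given as values and is not a test. On leaving out 1 or both mice Dbp ran from -0.1329 to 0.015 and Nr1d1 from -0.0462 to 0.0913. The slope on Dbp called 106 genes and 3 members. It called 37 genes without the trend, 230 after quantile normalization, 2 with the replicate block, and 0 with P21 mice only, P70 mice only, without both replicate 5 mice, or with the length correction (0 members in each of these but the first 2, and 1848, 3825, 1347 and 1555 genes at an unadjusted p under 0.05 in the last 4). Leaving out 1 mouse gave 0 to 5774 genes, 0 to 3 members and 0 to 5 other clock genes. With Per3 in place of Dbp 0 genes and 0 members were called, and Per1 was -0.19, Nr1d2 0.53 and Npas2 0.47. With Nr1d2 in place of Dbp 8866 genes and 12 other clock genes were called, and Per1 was -0.53, Per2 0.33, Ciart -0.51, Nr1d1 -0.47, Arntl 0.0099 and Npas2 0.14. In that fit the members Per1, Per2 and Nr1d1 passed (limma adjusted p = 0.0376, 0.0423 and 0.0279). With P21 mice only Per1 was -0.39 and Nr1d2 0.20. Nr1d2 ran from -0.3305 to 0.2605 over the fits that left out mice, highest without both replicate 5 mice, and was 0.0614 with the length correction, where Per2 was 0.0082. The cause was not tested. Leaving out both replicate 5 mice and the length correction were chosen after seeing the data.

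Between genotypes 0 genes passed. Leaving out 1 mouse gave 0 to 1 at P21, and leaving out both replicate 5 mice gave 1 at P70. Same-numbered mice are different animals. The correlation of same-numbered mice over all genes ran from -0.009 to 0.26 at P21 and from 0.075 to 0.705 at P70. Of these pairs, 6 of 10 were over 0.1, and 7 of 10 KO mice (4 of 5 at P70) correlated best with the WT mouse of their own number. The labels name no link beyond the number, so the main fits did not pair them. Whether same-numbered mice share a factor was not tested. The replicate block called 4977 genes by age, 2 by slope, and 0 by genotype at either age or by interaction. Under it the slopes of Ciart, Nr1d1 and Arntl were 0.96, 0.46 and -0.48 (limma adjusted p = 0.252, 0.796 and 0.796), and Arntl passed by age (adjusted p = 0.0469).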
